A study of Mus musculus with 4 samples.

Results

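Rrad Ifi202b thymic epithelial cells were defined here as epithelial cells of the mouse thymus that carried transcripts of Rrad or Ifi202b and none of the genes that mark the better known thymic epithelial cell (TEC) subsets. A cell was kept when it had more than 1000 detected genes and less than 20% of its unique molecular identifiers (UMIs, each 1 captured transcript) from mitochondrial genes. It was then selected when it had at least 1 UMI of Epcam, the epithelial adhesion molecule, at least 2 UMIs of Rrad and Ifi202b together, and 0 UMIs of each of Aire, Fezf2, Psmb11, Otog, Trpm5, Ptprc, Pdgfra and Pecam1. The selection took 659 cells out of 13981 called cells, of which 10245 were kept and 3641 had Epcam UMIs. A further 846 Epcam-positive cells met every other condition and had 0 or 1 UMI of the gate pair. They are called gate-low cells below and serve as the nearest comparison.

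The cells came from 4 droplet-based single-cell RNA sequencing libraries of CD45- thymic stroma from untreated mice 6 months old, all labelled C57BL/6. Libraries WT 1 and WT 2 were from wild type mice, and Z/Z 1 and Z/Z 2 from mice homozygous for a LacZ allele of Foxn1, the transcription factor that TECs need to develop and to persist. Z/Z is a germline genotype, so every cell of the animal carries it, and it cannot be separated from effects that started outside the epithelium. The labels do not say which thymi went into which library, so p-values below measure only the spread between these libraries, which may be technical.

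TECs attract, select and support developing T cells, and are classed as cortical (cTEC) or medullary (mTEC). The medulla includes an mTEC1 class that secretes the chemokine CCL21 and an mTEC2 class that carries the autoimmune regulator AIRE. Rrad encodes a small GTPase of the RGK family, which binds the beta subunit of voltage-gated calcium channels and is known from muscle. Ifi202b encodes a p200 (PYHIN) protein that binds DNA in the cytosol, is induced by interferon, and is known for a transcript level that differs between inbred strains. Whether the Ifi202b level found here is that of the labelled strain was not tested, so the label is not taken as the source of the allele. Lama3 and Tpbg, the other genes used as markers of these cells, encode the alpha chain of laminin-332, which anchors epithelium to its basement membrane, and trophoblast glycoprotein, a surface protein that dampens Wnt signalling.

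Where 4 values follow each other below, they stand in the order WT 1, WT 2, Z/Z 1, Z/Z 2. The libraries gave 44, 9, 359 and 247 selected cells, so WT 2 gave by far the fewest. The median depth of selected cells was 14708, 15960, 8777 and 8635 UMIs, and that of gate-low cells was 5879, 5169, 5738 and 5417. WT 1 and WT 2 shared 202 barcodes among their called cells and Z/Z 1 and Z/Z 2 shared 249, against 0 to 6 in the other pairs of libraries. A barcode seen in another library was carried by 29 selected cells, of which 5 were in WT 2, and no barcode was shared between selected cells of a pair of libraries. Results that rest on these libraries are therefore given with and without such cells where the value moved. Among all Epcam-positive cells Foxn1 measured 87.0, 94.6, 49.7 and 67.2 CPM (UMIs scaled to a total of 1e+06 per group of cells), lower in both Z/Z libraries. Within the selected cells the order was different, at 36.5, 0, 54.5 and 68.3 CPM. At the depth of the 9 WT 2 cells a count of 0 allows up to 21.3 CPM.

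Ifi202b lies on chromosome 1 within a block of p200 genes (GRCm38, 1:173962568 to 173982744, minus strand) and Rrad on chromosome 8 (104628070 to 104631327, minus strand). Sequences of 250 bases before the RefSeq start are shown for Ifi202b, for its neighbours Ifi203 and Mndal, whose levels moved with the gate, and for the interferon-inducible chemokine gene Cxcl10, which did too. Capitals mark the letters found by a search of both strands for GAAANNGAAA or TTTCNNTTTC (the core of the interferon-stimulated response element, ISRE) and for TTCNNNGAA (the core of the gamma-activated site, GAS). In Ifi202b the capitals are a GAS core whose first base is 148 bases before the start, and in Ifi203, Mndal and Cxcl10 they are an ISRE core at 35, 36 and 213 bases before it. The windows are chr1:173982845-173983094, chr1:173942493-173942742, chr1:173880188-173880437 and chr5:92348890-92349139 in GRCm38.p6, all from the minus strand.
Ifi202b: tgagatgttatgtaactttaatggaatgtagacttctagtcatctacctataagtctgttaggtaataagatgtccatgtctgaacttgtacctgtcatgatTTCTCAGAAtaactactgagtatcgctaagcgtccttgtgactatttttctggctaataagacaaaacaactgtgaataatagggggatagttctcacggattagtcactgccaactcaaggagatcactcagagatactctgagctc
Ifi203: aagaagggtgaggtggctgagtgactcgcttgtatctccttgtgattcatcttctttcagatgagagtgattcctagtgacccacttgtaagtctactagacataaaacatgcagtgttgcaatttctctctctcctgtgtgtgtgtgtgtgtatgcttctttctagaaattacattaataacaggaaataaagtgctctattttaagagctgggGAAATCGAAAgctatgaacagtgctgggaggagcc
Mndal: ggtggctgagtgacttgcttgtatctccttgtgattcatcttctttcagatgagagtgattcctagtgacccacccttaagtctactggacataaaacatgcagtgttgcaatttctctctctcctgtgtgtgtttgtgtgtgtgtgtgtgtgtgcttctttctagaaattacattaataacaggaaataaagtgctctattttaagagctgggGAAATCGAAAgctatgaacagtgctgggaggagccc
Cxcl10: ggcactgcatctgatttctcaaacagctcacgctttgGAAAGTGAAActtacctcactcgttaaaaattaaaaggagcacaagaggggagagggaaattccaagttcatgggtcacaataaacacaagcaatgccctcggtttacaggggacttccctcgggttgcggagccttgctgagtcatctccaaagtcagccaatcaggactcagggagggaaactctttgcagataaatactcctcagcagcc
The Ifi203 and Mndal windows shared an unbroken run of 96 bases that holds their ISRE core. For Ifi203 and Mndal RefSeq gave 2 windows each. The other Ifi203 window, chr1:173942673-173942922, held no ISRE core, and the one with a match is shown, while the other Mndal window held a core 54 bases before its start. Of 27025 genes with windows of this length, 3.46% had an ISRE core in at least 1 window and 8.13% a GAS core. Of the 12 listed p200 genes with a window, 9 had an ISRE core, and Ifi202b was the 1 with a GAS core. A match is a run of letters and was not tested as a binding site. The windows are those of the reference genome, and whether the mice here carry the same sequence before Ifi202b was not tested.

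Both gate genes were carried by 349 of the 659 cells, Rrad alone by 136 and Ifi202b alone by 174. In WT 2 none of the 9 cells carried Rrad alone and 7 carried Ifi202b alone, whereas the Z/Z libraries were close to these totals. The median number of Rrad UMIs per cell was 2, 0, 3 and 3, with a highest cell of 96, 29, 111 and 98 UMIs. The median for Ifi202b was 8.5, 17, 3 and 4 UMIs, with a highest cell of 128, 155, 211 and 119. Most selected cells were well inside the gate. Just outside the threshold were 187 cells with 1 UMI of the pair and just inside it 73 with 2 and 71 with 3, while 515 selected cells had more than 3. Epcam itself rested on 1 UMI in 73 selected cells.

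**Figure D1:**
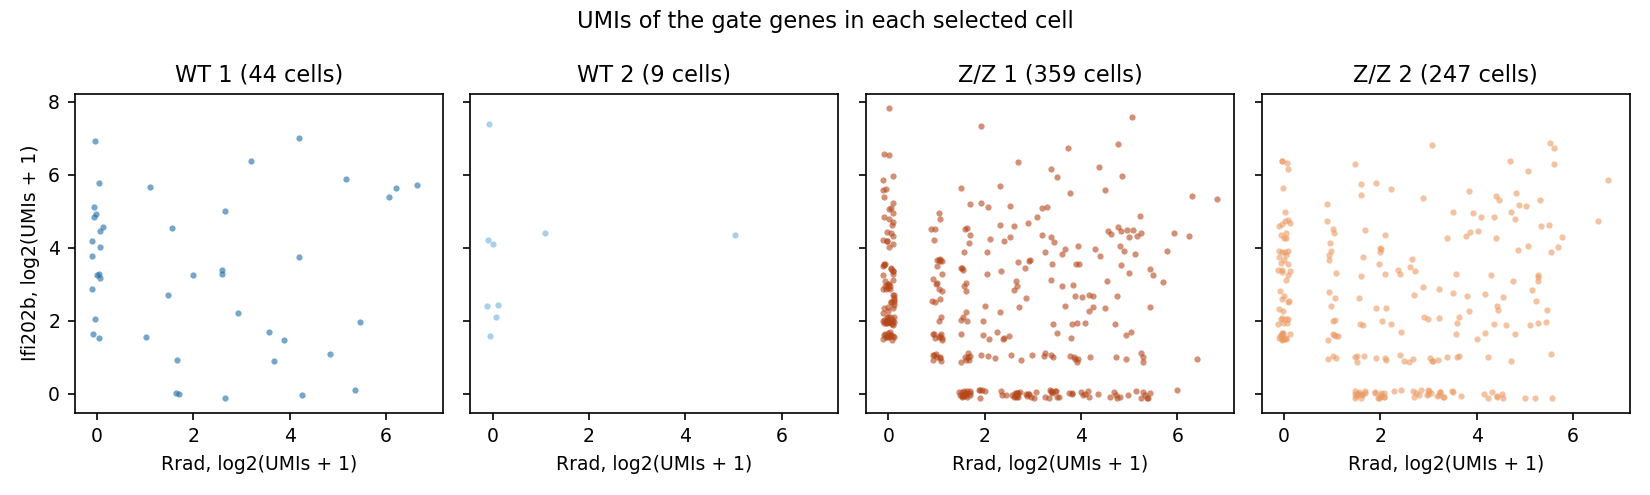
UMIs of Rrad (x axis) and Ifi202b (y axis) on the log2(UMIs + 1) scale, with small random offsets, 1 point per selected cell and 1 panel per library. Cells lie along both axes and between them, 349 of 659 carrying both genes, and WT 2 has 9 points with none on the Rrad axis.

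The gate pair was not limited to the selected cells. After every cell was thinned to 2000 UMIs, the pair reached 2 UMIs in 26.2%, 17.2%, 26.9% and 33.1% of the cells that met every other condition. It did so in 9.80%, 8.77%, 31.0% and 23.6% of Epcam-positive cells with Aire or Fezf2 UMIs, which the gate leaves out. In Epcam-negative cells with Pdgfra UMIs, the fibroblasts, the share was 0.396%, 0.562%, 2.09% and 1.52%. These had a median of 10771 to 15189 UMIs before thinning, against 6713 to 9954 for the cells that met every other condition. In Epcam-negative cells with Pecam1 UMIs, the endothelium, it was 1.66% to 4.60%, and in those with Ptprc (CD45) UMIs 3.11%, 2.20%, 2.17% and 10.6%, at median depths of 6229 to 7837 and 5052 to 7439 UMIs. The shares in these 3 classes are the levels read here as background, and the cells that met every other condition were above them in each library. Other classes came closer. The share was 18.4%, 25.0%, 18.8% and 32.4% in Epcam-positive cells with Psmb11 UMIs, of which WT 2 had 8. It was 4.55%, 0%, 15.4% and 19.6% in those with Otog UMIs. In Epcam-negative cells without Pdgfra, Pecam1 or Ptprc UMIs it was 14.8%, 3.70%, 19.7% and 26.6%. Rrad measured 326, 149, 479 and 671 CPM in these last cells, where Ifi202b measured 82.3, 6.75, 154 and 192 CPM. In the cells that met every other condition Rrad measured 417, 83.6, 461 and 610 CPM and Ifi202b 775, 613, 580 and 744 CPM. In these Epcam-negative cells Rrad was thus lower in WT 1 and higher in the other libraries, while Ifi202b was lower in each library. In Epcam-negative cells with Pdgfra, Pecam1 or Ptprc UMIs Rrad was lower in each library, at 18.4 to 185 CPM. Droplets of at most 100 UMIs, which hold free RNA, had 50.5 to 373 CPM of Rrad and 32.3 to 177 CPM of Ifi202b, with the higher levels in the Z/Z libraries. The part of free RNA in the selection was not tested.

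The selected cells did not form 1 cluster. When the 3641 Epcam-positive cells were clustered without the gate genes, selected cells lay in 22 of 24 clusters. Over all libraries the largest group, 198 cells (30.0%), was in a cluster led by Iigp1, Atf3, Mt1, Cxcl10, Klf2, Fosb, Cd274 and Socs3, genes of interferon response and early stress response, of which they made up 57.6%. That rank was set by the Z/Z libraries, since the cluster held 5, 0, 115 and 78 selected cells (11.4%, 0%, 32.0% and 31.6%). A cluster led by Gpc5, Kirrel3 and Fat3 held 131 (19.9%) and 1 led by Eya4, Grip1 and Rbms3 held 67. A further 66 were in a cluster led by Ccl21a and Krt17 with Krt5 and Krt14, genes of the mTEC1 class. These were 27.3%, 33.3%, 6.96% and 10.5% of the selected cells of their libraries, the largest group in WT 1, while in WT 2 4 of 9 cells were in a cluster led by Gstm1, Fbxo2 and Trpm3. In a small cluster led by the smooth muscle genes Acta2, Tagln and Myl9, 20 of 36 cells were selected. The name Rrad Ifi202b cells is therefore used for the rule and not for a cell type.

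Next, selected cells were set beside gate-low cells of the same library. Since the UMIs of these cells made the rule, the values are a description with no test. Gene lists below are counted over genes with at least 40 UMIs in selected cells. Of all 10850 such genes, 17.2% were higher in selected cells in all 4 libraries and 11.8% were lower. Among the better expressed genes, those with at least 30 CPM in each library, 33.8% were higher and 5.23% lower. Of 4113 genes with at least 30 CPM in the selected cells of each library, 24 (0.584%) were at least 2-fold higher than in gate-low cells in all 4 libraries, on a scale of log2(CPM + 5). The 20 with the largest lowest ratio comprised p200 genes (Ifi204, Mndal, Ifi203), other interferon-inducible genes (Cxcl10, Cd274, Gbp2, Ifi47, Lgals9, Samd9l, Rnf19b), actin and tubulin cytoskeleton genes (Tagln, Tpm2, Tubb6), the chemokine Ccl21a, the coagulation factor receptor F3, the cell cycle regulator Sfn, the phosphatase gene Dusp5, the inositol kinase gene Itpkc, the Rab regulator Dennd2c, and the nucleotide enzyme gene Ctps.

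**Figure D2:**
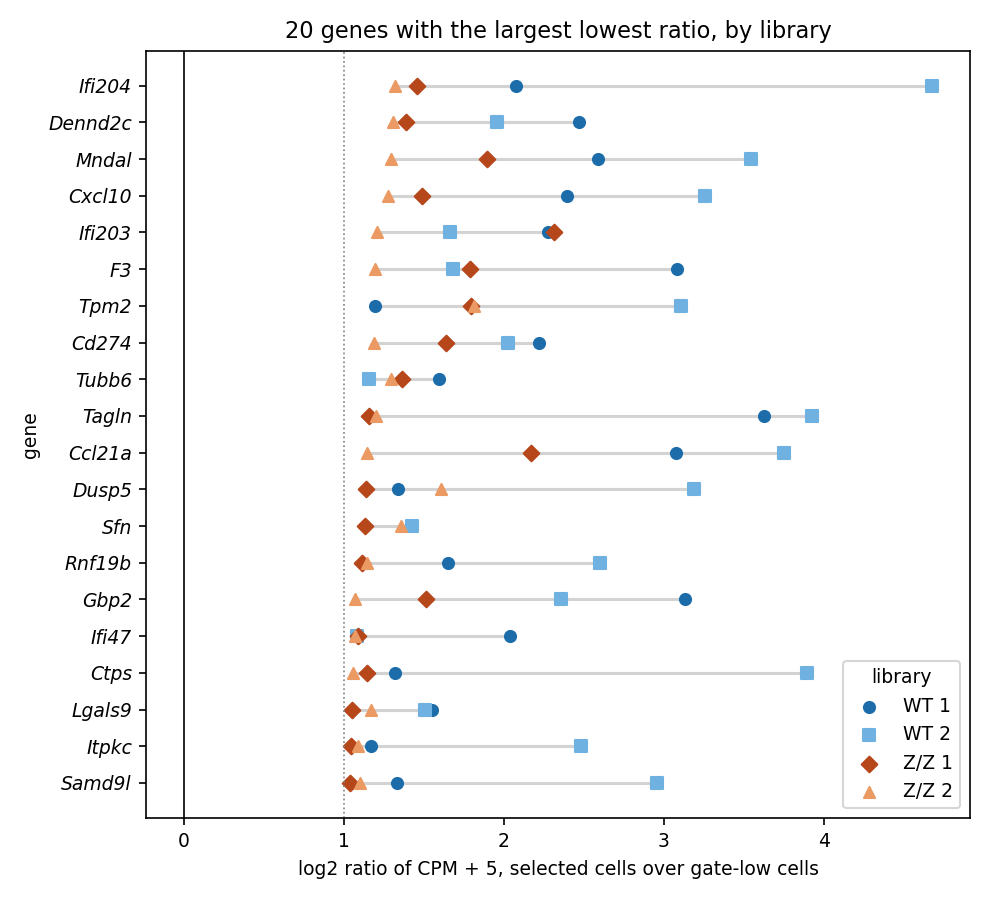
Log2 ratio of CPM + 5 in selected cells over gate-low cells (x axis) for the 20 genes with the largest lowest ratio, 1 symbol per library, with a grey line from the lowest to the highest and a dotted line at a 2-fold ratio. Every symbol is right of the dotted line, and the highest ratio, 4.68 for Ifi204, is in WT 2 with its 9 cells.

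The p200 genes next to Ifi202b were higher beside it. Mndal, which like its relatives carries a DNA-binding HIN domain, measured 582, 1109, 212 and 217 CPM in selected cells against 92.7, 90.5, 53.3 and 85.5 in gate-low cells. Ifi203 measured 402, 547, 276 and 196 CPM against 79.2, 169, 51.5 and 81.9. Ifi204 measured 222, 526, 118 and 123 CPM against 48.9, 15.7, 39.9 and 46.4. For these 3 genes every library of selected cells was above every library of gate-low cells. Aim2, the member of the family that starts the inflammasome, was lower in selected cells of WT 1, with 3.05, 7.11, 2.09 and 1.61 CPM against 55.6, 19.7, 3.57 and 3.61. Its values in selected cells rest on 2, 1, 8 and 4 UMIs, too few to read a direction in WT 2, Z/Z 1 or Z/Z 2. Of the 6 p200 genes with at least 40 UMIs in selected cells, Ifi202b left out, 5 were higher in all 4 libraries, where 17.2% of all 10850 such genes were. Over all 12 listed p200 genes other than Ifi202b, Aim2 included, the summed level was 1413, 2516, 754 and 673 CPM in selected cells and 374, 468, 223 and 321 in gate-low cells. The Mndal gene model spans Ifi211 and overlaps Ifi203, and these genes are close relatives, so the split of reads among them is uncertain.

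Interferon-stimulated genes showed the same direction. Of 25 with at least 40 UMIs, 18 were higher in selected cells in all 4 libraries and 1 was lower. Their median log2 ratio was 0.72, against 0.01 over all genes and 0.19 over those with at least 30 CPM. Cxcl10, a chemokine for activated T cells, measured 2331, 1699, 2754 and 2553 CPM against 440, 173, 978 and 1053. Cd274, which encodes the checkpoint ligand PD-L1, measured 1206, 1216, 1022 and 1297 CPM against 254, 295, 326 and 567. Both genes separated the selected from the gate-low cells with no overlap between libraries. The RNA-binding antiviral gene Ifit3 measured 330, 490, 211 and 282 CPM against 25.3, 15.7, 101 and 81.9. Free RNA held 209 to 936 CPM of Cxcl10.

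Among basement membrane genes, Lama3 was higher in selected cells of every library. It measured 448, 121, 172 and 241 CPM against 92.7, 27.5, 90.0 and 99.4 in gate-low cells. Lamb3, the beta chain of laminin-332, was also higher but in Z/Z 1 by little. Its level was 68.5, 35.5, 34.2 and 34.6 CPM against 18.5, 0, 32.5 and 24.7, a log2 ratio of 0.06 in Z/Z 1 that was -0.32 after thinning to 2000 UMIs. The genes of the integrin that binds laminin-332, Itga6 and Itgb4, were also higher in each library, with lowest log2 ratios of 0.23 and 0.33. In all, 9 of 15 genes of the list, Lama3 included, were higher in all 4 libraries and 1 was lower. Tpbg measured 22.8, 35.5, 45.6 and 34.2 CPM against 3.37, 3.93, 18.8 and 10.2. With Tpbg included, 3 of the 10 genes of its Wnt list were higher in all 4 libraries. Of all genes, 17.2% were higher and 11.8% lower, and 33.8% and 5.23% of those with at least 30 CPM. Beside these shares the Wnt count is not read as a result. Lama3 and Tpbg were chosen as markers from clusters of these cells, so their levels here are no independent support.

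Ccl21a, the mTEC1 chemokine that draws thymocytes into the medulla, measured 3420, 6213, 1746 and 1706 CPM in selected cells against 401, 456, 384 and 770, and was found in 43.2%, 66.7%, 26.5% and 32.0% of selected cells. In WT 2, 1 selected cell held 56.5% of the Ccl21a UMIs. Of 6 mTEC1 markers 4 were higher in all 4 libraries. Keratin 5 and keratin 14 of basal epithelium were among the 5 of 11 keratins that were, with Krt14 at 417, 1720, 100 and 112 CPM against 160, 468, 37.8 and 54.2. Of 8 genes of MHC class II presentation 6 were higher, by modest amounts. For H2-Aa the level was 1512, 2268, 1464 and 1628 CPM against 1277, 925, 975 and 1102. Of 10 MHC class I genes 5 were higher, and of 5 cTEC markers 1 was higher and 1 lower. TEC function genes, among them Foxn1 and genes it is known to control, gave 1 higher and 2 lower of 14. Over all genes 17.2% were higher and 11.8% lower, and 33.8% and 5.23% of those with at least 30 CPM. Beside these shares the counts for keratins, MHC class I, cTEC markers and TEC function genes are not read as results.

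Stress and signalling lists gave 17 of 27 immediate early and heat shock genes higher in all 4 libraries, 8 of 15 NF-kB targets and 7 of 9 YAP and TEAD targets. Over all genes 17.2% were higher and 11.8% lower, and 33.8% and 5.23% of those with at least 30 CPM. The matrix gene Ccn1, a YAP target, measured 601, 1045, 378 and 253 CPM against 92.7, 35.4, 269 and 143, and the gap was smaller in the Z/Z libraries. In WT 2, 1 selected cell held 103 of the 147 Ccn1 UMIs. The early response gene Atf3 measured 2377, 2317, 4327 and 3434 CPM against 1676, 456, 2965 and 2544. Of 13 p53 targets 1 was higher and 2 were lower. Of 6 genes of relatives and partners of Rrad, 1 was higher in all 4 libraries and 2 were lower. Beside the shares over all genes this count is not read as a result. The higher 1 was Gem, which encodes another RGK GTPase, with 432, 384, 611 and 545 CPM against 135, 122, 260 and 298. Cacnb2, which encodes a calcium channel beta subunit that RGK proteins bind, had 238 CPM against 20.2 in WT 1 but was lower in selected cells of the other libraries (21.3, 130 and 95.2 CPM against 94.4, 145 and 121). In WT 1, 1 selected cell held 97 of the 156 Cacnb2 UMIs.

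Markers of other cell types were mostly higher in gate-low cells. The summed level of 10 B cell and myeloid markers was 14.2 to 52.1 CPM in selected and 50.9 to 1172 CPM in gate-low cells, and that of 10 T cell markers 12.0 to 56.2 and 17.9 to 110 CPM. For 4 parathyroid markers it was 7.04 to 53.3 and 0 to 22542 CPM, the highest value being WT 1, where 1 gate-low cell was rich in Pth, the parathyroid hormone gene. Gcm2, which defines the parathyroid, was at 0 in selected cells and at 3.37, 0, 0.298 and 4.22 CPM in gate-low cells. With the cells rich in immunoglobulin or Pth UMIs left out, 10 genes instead of 24 were at least 2-fold higher in all 4 libraries. With cells of shared barcodes left out the number was 14, WT 2 then resting on 4 selected cells. Fibroblast markers summed to 156 to 411 CPM against 122 to 1090, and endothelial markers to 0 to 27.3 CPM against 11.8 to 45.2. In single libraries the order was reversed. In WT 2 fibroblast markers were at 156 CPM in selected against 122 in gate-low cells, and parathyroid markers at 21.3 against 0. In Z/Z 1 B cell and myeloid markers were at 52.1 against 50.9 CPM. Higher in selected cells of every library was the list of 8 mural cell markers (smooth muscle and pericytes), at 950, 490, 1160 and 676 CPM against 425, 59.0, 495 and 306. Its part in the ratios of Tagln and Tpm2 is described next.

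Cells that carried Rrad alone differed from the rest in what else they carried. The summed level of the contractile genes Acta2, Tagln, Myh11, Myl9 and Tpm2 was 6936, 5566 and 3551 CPM in the cells with Rrad alone of WT 1, Z/Z 1 and Z/Z 2. It was 252 to 495 CPM over the 4 libraries in cells with Ifi202b alone and 0 to 535 CPM in cells with both. This level sat in few cells. At least 5 UMIs of Acta2, smooth muscle actin, were present in 3, 0, 19 and 8 selected cells, 30 in all, and these held 95.6% to 98.4% of the Acta2 UMIs of their libraries. Rrad UMIs were present in 29 of the 30, no Ifi202b in 20, and Myh11, the smooth muscle myosin, in 25, while Krt5 was present in 5. Their median Epcam count in the same 3 libraries was 1, 2 and 1.5 UMIs, against 9, 7 and 7 over all selected cells. With these cells left out the contractile sum in cells with Rrad alone was 301, 324 and 265 CPM, within the range of the other cells. Among gate-low cells 9 of 846 had 5 or more Acta2 UMIs.

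**Figure D3:**
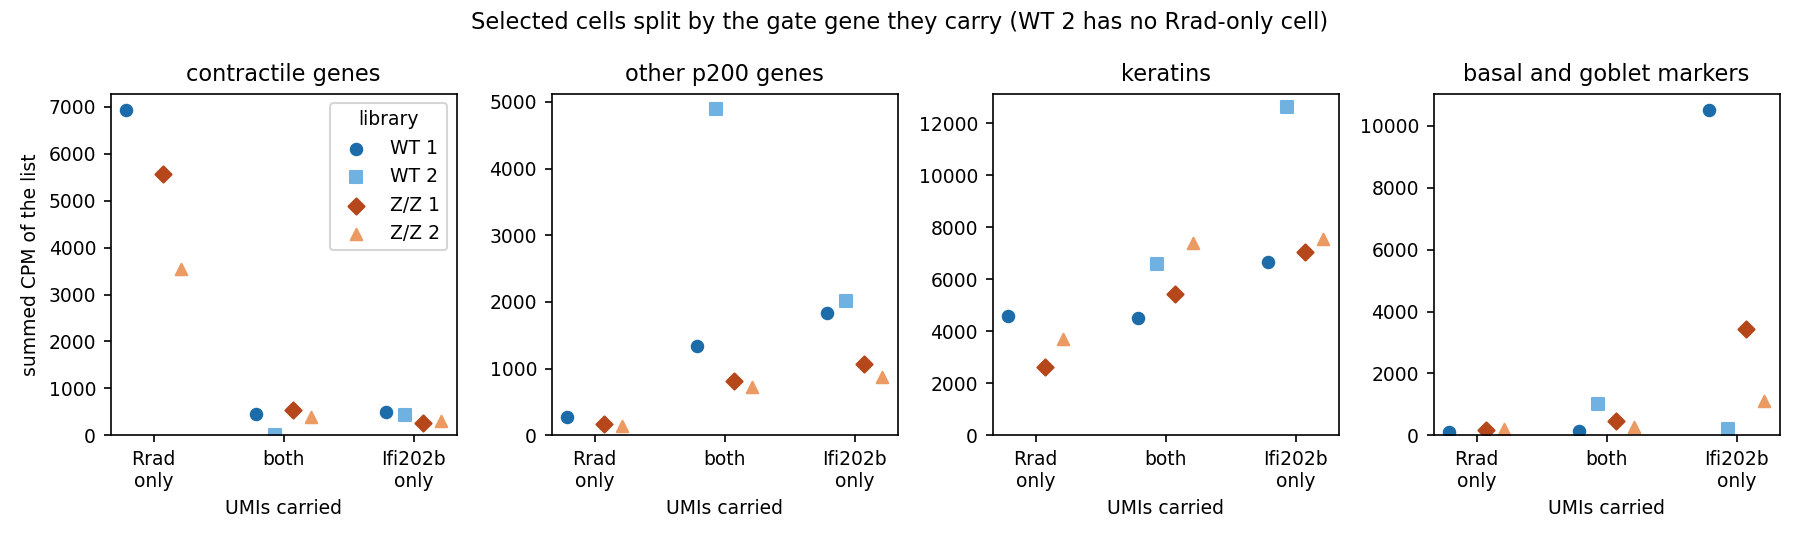
Summed CPM (y axis) of 4 gene lists in selected cells that carried Rrad alone, both genes or Ifi202b alone, 1 symbol per library and no Rrad-only cell in WT 2. Contractile genes are at 3551 CPM or more in cells with Rrad alone and at most 535 elsewhere, while other p200 genes are at most 281 CPM in cells with Rrad alone and at least 720 elsewhere. Cells with Rrad alone number 5 in WT 1, and cells with both genes number 2 in WT 2. Without cells of at least 5 Acta2 UMIs the contractile level in cells with Rrad alone is 265 to 324 CPM.

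The other p200 genes went with Ifi202b. Their summed level was 281, 168 and 139 CPM (WT 1, Z/Z 1 and Z/Z 2) in cells with Rrad alone, 1832, 2020, 1067 and 877 CPM in cells with Ifi202b alone and 1339, 4890, 814 and 720 CPM in cells with both. The p200 levels of cells with Rrad alone were below those of gate-low cells in all 3 libraries that had such cells. Cxcl10 did not follow this division, with 1299, 2903 and 2425 CPM in cells with Rrad alone and 3092, 997, 1824 and 2255 CPM in cells with Ifi202b alone. Keratins summed to 4606, 2630 and 3699 CPM in cells with Rrad alone and to 6655, 12653, 7061 and 7571 CPM in cells with Ifi202b alone. Cells with Ifi202b alone also held the secretory gene Wfdc2, at 8576 CPM in WT 1 and 3171 in Z/Z 1, against 77.4 in WT 2 and 805 in Z/Z 2. In cells with both genes Wfdc2 was at most 286 CPM.

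The study compared wild type with Z/Z thymus to ask how reduced Foxn1 changes the epithelium. Selected cells made up 7.80%, 6.25%, 23.4% and 17.7% of Epcam-positive cells. The exact binomial 95% intervals, which cover counting error only, were 5.73 to 10.3%, 2.90 to 11.5%, 21.3 to 25.6% and 15.7 to 19.8%. The WT mean was 7.03% ± 1.10 (SD, n = 2) and the Z/Z mean was 20.5% ± 4.06 (SD, n = 2), a difference of 13.5 percentage points, with both Z/Z libraries above both WT libraries. The two-sided exact permutation test gave p = 0.33, the smallest that 2 libraries against 2 allow, so the comparison could not reach 0.05. Since WT cells were deeper (a median of 21029 and 18972 UMIs per Epcam-positive cell against 8902 and 9143), and a deeper cell more readily shows 1 UMI of an excluded gene, the share was taken again after thinning to 2000 UMIs. It was then 8.76%, 7.78%, 21.8% and 22.9%. In counts of cells, fewer cells of other epithelial kinds and more selected cells cannot be told apart.

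Much of this difference lay in the conditions other than Rrad and Ifi202b. Of Epcam-positive cells 18.8%, 21.5%, 55.0% and 37.5% met every other condition. Within these cells the selected share was 41.5%, 29.0%, 42.5% and 47.1%, with WT 1 close to both Z/Z libraries and intervals that overlapped (32.0 to 51.5% in WT 1 and 39.2 to 46.0% in Z/Z 1). The mean difference was 9.57 percentage points (exact permutation p = 0.33). The limits on detected genes and mitochondrial UMIs kept 55.5%, 39.8%, 83.4% and 80.4% of the called cells, and the part of that gap in the shares was not tested.

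**Figure D4:**
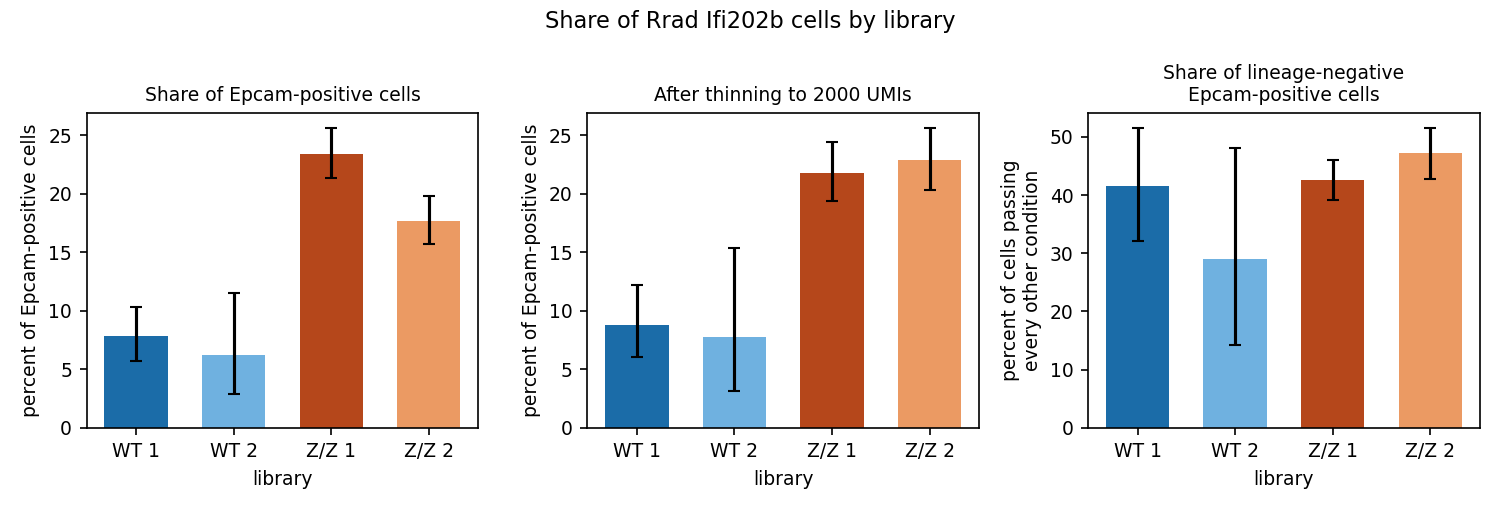
Share of selected cells in percent (y axis) by library, as bars with exact binomial 95% intervals, over all Epcam-positive cells (left), after thinning to 2000 UMIs (middle) and over cells that met every other condition of the gate (right). Both Z/Z bars exceed both WT bars in the first panels, while in the right panel WT 1 at 41.5% is near Z/Z 1 at 42.5%.

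Genotype differences inside the selected cells were tested on UMI sums per library, with edgeR's quasi-likelihood test and Benjamini-Hochberg adjustment over 10787 genes. At an adjusted p under 0.05, 5 genes were lower in Z/Z (0.0464% of genes tested) and 0 were higher. At an unadjusted p under 0.05, 552 were higher and 635 lower, and DESeq2 called 6 higher and 53 lower. Groups did not overlap, with both Z/Z libraries above both WT libraries, in 25.9% of genes, and the other way in 18.4%. With cells of shared barcodes left out, 44 genes were called higher and 151 lower. With WT 1, WT 2, Z/Z 1 or Z/Z 2 left out in turn, 96, 99, 3 and 13 genes were called higher and 145, 311, 39 and 55 lower, so the number of calls moved with every library. In the same fit of gate-low cells 0 of 10512 genes were higher and 18 (0.171%) lower in Z/Z.

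Of the called genes described here, Ptk2b was spread over the most cells. Ptk2b, which encodes the focal adhesion kinase relative PYK2, measured 192 and 171 CPM in WT libraries and 26.9 and 28.9 CPM in Z/Z libraries, a log2 difference of -2.74 (SE 0.25, edgeR adjusted p = 0.0277). It was found in 19, 5, 45 and 36 cells. The libraries of a genotype were close to each other and the genotypes far apart, though the WT 2 level rested on 24 UMIs. Selected cells of WT and Z/Z were spread over the clusters in unequal shares, as given above. For Ptk2b and the other called genes, lower levels per cell and fewer cells that carry the gene cannot be told apart. Ptk2b was called under all 17 alternatives tried (adjusted p of 6.9e-14 to 0.0404).

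Skint7, Sprr2a3 and Osr2 rested on few cells. Skint7, of a family of epithelial immunoglobulin-like genes first known from skin and thymus, measured 74.6 and 128 CPM in WT and 7.82 and 5.62 in Z/Z (log2 difference -3.74, edgeR adjusted p = 0.0384), but 1 cell held 94.4% of its UMIs in WT 2. Sprr2a3, a gene of the cornified envelope of keratinising epithelium, measured 91.4, 142, 8.34 and 5.62 CPM (log2 difference -3.91, edgeR adjusted p = 0.0277), with a single cell holding 81.7%, 100%, 90.6% and 100% of its UMIs. The transcription factor gene Osr2 had 56 and 5 UMIs in WT and 1 and 0 in Z/Z (85.3, 35.5, 0.261 and 0 CPM, edgeR adjusted p = 0.0277). Its level in WT was 484 times that in Z/Z, with a counting interval of 83.6 to 19418. That interval takes the UMIs of a cell as independent and leaves out the spread between cells and libraries. It is therefore no bound on the genotype difference. The 61 WT UMIs lay in 4 cells of WT 1 and 3 cells of WT 2, with 27 of them in 1 cell.

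**Figure D5:**
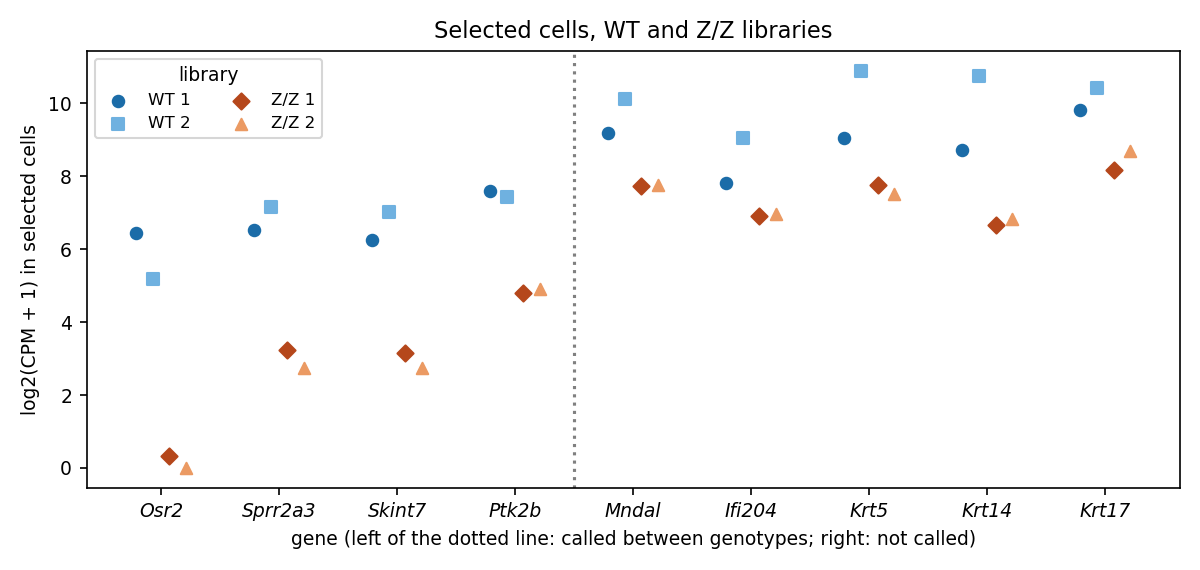
Log2(CPM + 1) in selected cells (y axis) by library for 4 genes called between genotypes (left of the dotted line) and for 5 p200 and keratin genes that were not called (right). Z/Z symbols lie below WT symbols for all 9 genes, and the WT libraries lie closest together for Ptk2b.

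No listed group of genes had a called member. The counts below are of genes whose genotypes did not overlap, which held for 18.4% of all genes with Z/Z below WT and for 25.9% with Z/Z above. They compare selected cells of unequal make-up, since the cluster led by Ccl21a, Krt17, Krt5 and Krt14 held 27.3% and 33.3% of them in WT against 6.96% and 10.5% in Z/Z, and the cluster led by Iigp1 and Atf3 11.4% and 0% against 32.0% and 31.6%. The gate also filled the genotypes unequally. Cells with Rrad alone, which held little of the other p200 genes, were 11.4% and 0% of selected cells in WT against 21.7% and 21.5% in Z/Z. The p200 counts below are therefore not independent of the rule. Lower levels per cell and fewer cells of such a kind cannot be told apart in these sums. Of 6 tested p200 genes 4 were lower in both Z/Z libraries than in both WT libraries, with a median log2 difference of -1.04 against 0.02 over all genes. For Mndal the WT levels of 582 and 1109 CPM against 212 and 217 in Z/Z gave an edgeR adjusted p of 0.0995. Of 26 interferon-stimulated genes 14 were below both WT libraries and 2 above (median -0.45). Of 11 keratins 7 were below and 0 above (median -1.70), among them Krt5 with 527, 1905, 215 and 183 CPM (edgeR adjusted p = 0.164). The summed level of all listed keratins overlapped between genotypes, at 5376, 11601, 5294 and 6930 CPM. Of 6 mTEC1 markers 4 were below (median -1.68), and Ly6a, a surface marker of the class, measured 1090 and 1464 CPM against 304 and 391 (edgeR adjusted p = 0.0976). MHC class I had 5 of 10 below both WT libraries, with B2m, the light chain gene, at 2261, 2474, 1104 and 996 CPM (edgeR adjusted p = 0.162). NF-kB targets went the other way, with 6 of 14 above both WT libraries and 0 below (median 0.35), among them the inhibitor gene Nfkbia at 1162, 825, 1475 and 1749 CPM (edgeR adjusted p = 0.444).

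The marker genes did not separate the genotypes. Lama3 had 448 and 121 CPM in WT and 172 and 241 in Z/Z (log2 difference -0.61, SE 0.49, edgeR adjusted p = 0.699), and Tpbg 22.8 and 35.5 CPM against 45.6 and 34.2 (log2 difference 0.62, SE 0.39, edgeR adjusted p = 0.619). In selected cells Rrad itself measured 786, 213, 849 and 1006 CPM and Ifi202b 1466, 1699, 1075 and 1227 CPM, values that the gate chose and that were not tested. In WT 2 single cells held 96.7% of the Rrad UMIs and 64.9% of the Ifi202b UMIs.

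Whether the genotype difference in selected cells was other than that in gate-low cells was tested as an interaction, with library as a block, over 11297 genes. The test called 1 gene (0.00885%), S100g, which encodes the vitamin D-dependent calcium-binding protein calbindin-D9k, and 1135 genes had an unadjusted p under 0.05. DESeq2 called 25. With WT 1, WT 2, Z/Z 1 or Z/Z 2 left out in turn, 295, 591, 32 and 62 genes were called, and with cells of shared barcodes left out 193. Ptk2b and the p200 genes were not called, so no difference between selected and gate-low cells in their response to genotype was detected at this depth.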

How the data were processed

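CD45- thymic stroma of 2 wild type and 2 homozygous LacZ libraries was profiled with a droplet-based 3′ kit. Per the file headers and labels, the authors aligned reads to mm10 and made UMI counts per gene and droplet with Cell Ranger (7.0.1 in the filtered and 4 in the unfiltered headers, 7.01 in the submitters' processing notes). Intronic reads were counted, and the deposited matrices hold 32285 features. Deposited summaries also gave percent values made by the authors' Cell Ranger runs, such as sequencing saturation (65.2% to 95.2%).

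From the counts, cells were selected as the report states. CPM were UMIs scaled to 1e+06, and 111 ribosomal protein and haemoglobin features were left out. Doublets were kept, and Scrublet's own threshold marked 0.80% of cells, so removal of the top 3.9% per library was an alternative, which removed 18 selected cells. Clustering used scanpy 1.11.5. Sums per library were tested with edgeR 4.0.16 (quasi-likelihood, TMM, filterByExpr, Benjamini-Hochberg), with DESeq2 1.42.0 as an alternative, both two-sided. Tested on simulated data, the genotype fit (10465 genes) called 23.9% of 2-fold, 94.0% of 4-fold and 98.5% of 8-fold changes, and the interaction fit (10604 genes) 5.97%, 46.3% and 89.4%. The changed genes had a mean of at least 30 CPM, and all counts were drawn at 1 common dispersion, 0.0472. Sums held mostly by 1 cell and unequal cluster make-up were not simulated, so these rates may be too high for the real sums. The 3 detected counts that a count of 0 allows set each floor.

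The members of the selection and all gene lists were chosen with earlier results of these data known. Named genes were the gate and marker genes, up to 12 called genes per direction with groups that did not overlap and a mean of at least 30 CPM, the 20 genes with the largest lowest ratio over gate-low cells (unnamed gene models left out), up to 6 interaction genes and members of the lists. Of the genes this rule names, 1 called between genotypes is not reported here. Alternatives were other limits on cells, thinning, other gates, doublet removal, shared barcodes, normalization, low-count filter, replicate block and each library left out. The gate genes were held out of calls. Labels and protocol differ on the sex of the mice, which was not used.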

Additional observations from a re-analysis of the deposited data

Results flagged for a closer look

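S100g was singled out because its genotype difference in selected cells was other than that in gate-low cells, by an interaction test in edgeR (log2 difference of differences 13.96, SE 0.73, adjusted p = 0.00346). The levels were 1.52, 0, 12.5 and 1.61 CPM in selected cells and 1287, 11.8, 0.596 and 0 CPM in gate-low cells of WT 1, WT 2, Z/Z 1 and Z/Z 2, so the fitted value rests on counts at or near 0 and is no bound. In gate-low cells of WT 1, 1 cell held 730 of 764 UMIs, and in selected cells of Z/Z 1, 1 cell held 47 of 48. The call was lost without WT 1 (adjusted p = 0.0877) and with doublets removed (adjusted p = 0.0951), and adjusted p ranged from 2.7e-27 to 0.0951 over its alternatives.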

How the results depend on the processing

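The share of selected cells among Epcam-positive cells was higher in both Z/Z libraries under every alternative run, with differences of 7.71 to 16.4 percentage points. Counts of calls moved far more, and the cause was not tested. Genes called higher and lower in Z/Z numbered 5 and 47 after thinning to 2000 UMIs, 44 and 151 without shared barcodes, 41 and 119 with a gate of Rrad alone, 42 and 106 in cells with both genes, 6 and 53 with DESeq2, and 168 and 371 with no filter on low counts. Leaving out 1 library gave 3 to 99 higher and 39 to 311 lower. For the interaction these settings gave 51, 193, 323, 342, 25 and 159 genes in the same order, with 2 under a 10% mitochondrial limit, 5 without immunoglobulin and Pth cells (an alternative chosen after seeing the data, as was the limit to cells with both genes), and 32 to 591 with 1 library left out. The 4 genes named as called lower were also called under most alternatives, from 12 of 13 for Osr2 to 17 of 17 for Ptk2b. Osr2 could not be tested after thinning, with Rrad alone, in cells with both genes or without WT 1, which held 56 of its 61 WT UMIs. Skint7 and Sprr2a3 lost their calls in cells with both genes (adjusted p = 0.163 and 0.509) and Osr2 with a gate of at least 3 UMIs (0.0736). Genes at least 2-fold over gate-low cells in all libraries numbered 14 without shared barcodes, 13 with a gate of Rrad alone and 10 without immunoglobulin and Pth cells, against 24. The lowest log2 ratio turned negative for Ifi47 after thinning (-4.49), for F3 without shared barcodes (-1.25) and with Rrad alone (-0.078), for Ctps with Rrad alone (-0.84), for Dennd2c in cells with both genes (-0.28), and under both of these gates for Tpm2 (-2.52), Tubb6 (-3.01) and Dusp5 (-2.70). With Rrad alone and in cells with both genes WT 2 holds 1 or 2 selected cells. Replicate numbers were shared between genotypes but did not pair the libraries (correlation of deviations -0.0059 with 2 pairs), and a replicate block gave 19 genes higher and 56 lower in Z/Z, 104 in the interaction and the same difference in shares (exact permutation p = 0.5, the smallest it allows).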
